A study of Homo sapiens with 6 samples.

Results

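The insulin-like growth factor (IGF) axis was followed in MCF10A, an immortalized mammary epithelial cell line, through 10 genes chosen by name: the binding protein genes IGFBP2, IGFBP3, IGFBP4, IGFBP5, IGFBP6 and IGFBP7, the receptor genes IGF1R and INSR, and the receptor substrate genes IRS1 and IRS2. They are 10 of the 19198 genes in the table, and all 10 were among the 16988 genes tested. RNA-Seq covered 6 samples of this 1 cell line. The series text and the sample labels do not give the same number of replicates, and the 3 labelled samples per condition were used. The 3 growth factor samples were grown with hydrocortisone at 0.5 µg/ml, cholera toxin at 100 ng/ml, EGF at 20 ng/ml and insulin at 10 µg/ml. The 3 growth factor depleted samples lacked all 4 of these. Both media held 5% horse serum, and the RNA was total RNA freed of ribosomal RNA. Because the 4 additives were removed together, a response to the loss of insulin cannot be told apart from a response to the loss of the others. The day of RNA harvest was not given for these samples, and no source said that replicates were separate cultures, so p-values measure the spread between these samples, which may be technical.

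Insulin and the IGFs signal through receptor tyrosine kinases encoded by INSR and IGF1R, and the activated receptors phosphorylate the adaptor proteins IRS1 and IRS2, which recruit PI3-kinase. Secreted IGF binding proteins hold IGFs in the extracellular space, extend their lifetime and limit or deliver them to the receptors. Insulin itself is hardly bound by these proteins, and at the high concentration used in MCF10A medium it can also act through the IGF-1 receptor. IGFBP7 carries the same amino-terminal domain but binds IGFs weakly and is found in matrix and around vessels. In breast tissue IGFBP5 is known for its rise during involution of the gland after lactation.

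After growth factor depletion 3 of the 6 binding protein genes were up-regulated, and none of the receptor and substrate genes passed the test. The genes that rose were IGFBP4, IGFBP5 and IGFBP7. IGFBP5 had the largest rise of the 16988 genes tested on the scale of the limma test, while with edgeR at least LUM, at a log2 difference of 11.27 against 10.37, exceeded it. No member was called down-regulated, and the levels of IGFBP3, the most abundant binding protein transcript with growth factors, overlapped between conditions. A gene was called when limma gave a Benjamini-Hochberg adjusted p under 0.05 together with a change of at least 2-fold. By this rule 6.33% of all genes tested were called, 4.36% higher and 1.97% lower in the depleted samples. Of the 10 members, 3 were called, all higher. In 25.6% of all genes tested the values of the groups did not overlap, and among the members this was so for 4, the 3 called genes and INSR, which was lower. The median log2 difference of all genes tested was -0.029.

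**Figure D1:**
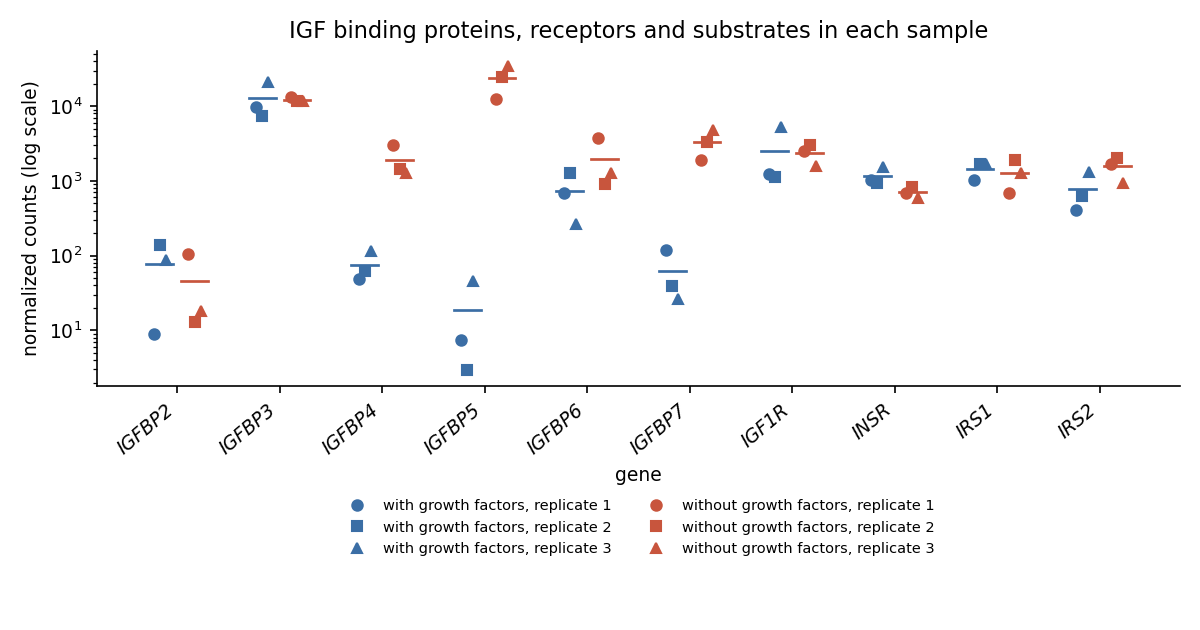
Normalized counts (log axis) of the 10 members in each of the 6 samples, blue with growth factors and red growth factor depleted; symbols give the replicate number and bars the group mean. The red points of IGFBP4, IGFBP5 and IGFBP7 lie far above the blue points, those of INSR lie just below, and the other 6 genes overlap.

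The levels are normalized counts, that is reads on a gene divided by the sample's size factor and not by gene length. Differences are on the log2 scale, depleted minus growth factors, of the normalized count plus 1. The samples held 7472418 to 28672630 reads on genes, and 3 reads, taken as the floor for counting error only, correspond to 1.76 to 6.71 normalized counts. The RNA was from bulk cultures, in which fewer cells that express a gene and less RNA per cell cannot be told apart. Of 8 fibroblast or mesenchymal markers (COL1A1, COL1A2, COL3A1, DCN, LUM, PDGFRA, PDGFRB and VIM), 7 were called higher and all 8 were higher in every depleted sample. Over all genes tested 4.36% were called higher, and in 25.6% the groups did not overlap. LUM, PDGFRA and PDGFRB reached the mean of 10 needed for a test through the depleted samples alone, so these counts are a description. The summed level of the 8 was 592 to 947 normalized counts with growth factors and 29233 to 78209 after depletion. VIM gave most of the sum after depletion, at 44833.5, 16541.7 and 19282.7 in replicates 1, 2 and 3. Of 6 basal markers, TP63 and LAMA3 fell and none was called higher, and the summed level was 45038 to 67626 against 35290 to 148073. KRT17, at 5881.7 to 16142.4 and then at 19235.7 to 123479.8, was higher in every depleted sample but did not pass the test (log2 difference 2.44, limma adjusted p 0.0877), nor did KRT14 (2.69, limma adjusted p 0.184). The labels call the cells luminal ductal. Of the 8 luminal markers ELF5 is not listed, KRT19 fell and the others did not pass the test. KRT8 and KRT18 were between 1716 and 19305 in all samples, with log2 differences of 1.10 and 1.17. ESR1 (log2 difference -2.99, limma adjusted p 0.0632) and FOXA1 (-0.72) were lower in every depleted sample. EPCAM (-0.98) and GATA3 (-0.28) overlapped between conditions. Of 4 endothelial markers CDH5 rose, from between 4.1 and 8.8 to between 25.6 and 118.7. CDH5 too reached a mean of 10 through the depleted samples alone. PECAM1 ranged from 91.5 to 998.8 and from 110.2 to 1581.6, KDR from 32.2 to 778.3 and from 0.0 to 24.9, and VWF stayed at or below 13.4. Of 4 immune markers CD68 and CD3E are not listed, PTPRC was at 0 to 2.0 and then at 10.1 to 13.8, and CD14 was at 270.5 to 882.3 and then at 72.8 to 646.2. Depleted replicate 1 stood apart, with the lowest KRT5 (562.0) and EPCAM (152.9) and the highest PDGFRB (3322.5) of the 6 samples. The part of cell composition in the differences below was not tested.

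IGFBP5 encodes a binding protein with high affinity for IGFs that also binds matrix. With growth factors it was nearly silent, at 7.5, 2.9 and 45.3 normalized counts in replicates 1, 2 and 3, which rest on 6, 5 and 46 reads. In the depleted samples it reached 12335.3, 24754.6 and 34518.4. Every depleted sample exceeded every growth factor sample by more than 2 orders of magnitude on this scale. The difference was 10.89 ± 0.82 (log2, SE, n = 3 against 3; 95% interval 9.01 to 12.77; limma adjusted p 4.7e-04), and the ratio of the group means was 1286. By mean level IGFBP5 moved from rank 15022 to rank 38 among the genes tested. The low level with growth factors was the less certain of the 2, and without growth factor replicate 3, which held most of those reads, the log2 difference was 11.89.

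IGFBP7 encodes the matrix-associated relative of the family. Its values with growth factors were 117.8, 39.3 and 26.6. Its values in the depleted samples were 1920.3, 3334.0 and 4744.7, all above the growth factor range. The log2 difference was 5.94 ± 0.57 (SE; 95% interval 4.63 to 7.24; limma adjusted p 0.00119), and the means differed 54.5-fold. This was rank 78 among the rises of all genes tested. The difference was 6.55 without growth factor replicate 1, the highest of its group. IGFBP7 shares its locus with other genes on the opposite strand, and the strand setting of the counting was not given. One of them, the long noncoding IGFBP7-AS1, was at 0 in all growth factor samples and at 15.6, 29.5 and 55.9 in the depleted ones. Its limma adjusted p of 0.00652 is a description, because it reached the mean of 10 needed for a test through the depleted samples alone. The values of IGFBP7-AS1 were far below those of IGFBP7 in every depleted sample. POLR2B, a subunit of RNA polymerase II that overlaps IGFBP7 on the other strand, did not pass the test (log2 difference 0.35, limma adjusted p 0.596).

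IGFBP4 encodes a binding protein known mainly as an inhibitor of IGF action that is cleaved by the protease pappalysin-1. It was at 48.9, 62.7 and 115.1 with growth factors. It was at 3035.1, 1430.7 and 1281.2 after depletion, with the highest value in depleted replicate 1, and the groups were far apart. The log2 difference was 4.63 ± 0.46 (SE; 95% interval 3.59 to 5.67; limma adjusted p 0.00128), and the means differed 25.4-fold. Without depleted replicate 1 the difference was 4.24, and the gene was still called (limma adjusted p 0.00346).

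The depleted samples were not ordered alike by the 3 genes. IGFBP5 and IGFBP7 were lowest in depleted replicate 1 and highest in replicate 3, while IGFBP4 was highest in replicate 1 and lowest in replicate 3. IGFBP6 was also highest in replicate 1. The mesenchymal marker sum, most of it VIM, was highest in that replicate as well, at 78209 against 29233 and 31148 in the others. Of these markers only COL1A1 was highest elsewhere, at 2835.1 in depleted replicate 2.

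IGFBP6 encodes a binding protein that prefers IGF-II. It was at 683.0, 1257.2 and 267.6 with growth factors and at 3781.1, 912.0 and 1272.2 after depletion. The ranges overlapped, and 1 high sample, depleted replicate 1, set the group mean. The log2 difference of 1.42 ± 0.66 (SE; 95% interval -0.09 to 2.93; limma adjusted p 0.284) did not pass the test. It was 0.81 without that replicate and 0.82 without growth factor replicate 3.

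IGFBP3 encodes the main carrier of IGFs in blood, which is also made by epithelial cells. It was at 9875.5, 7409.2 and 21244.7 with growth factors and at 13316.5, 11722.0 and 11765.5 after depletion. The depleted values fell inside the growth factor range. The log2 difference was 0.08 ± 0.44 (SE; limma adjusted p 0.953), and its 95% interval of -0.93 to 1.09 holds changes of up to about 2-fold in either direction. IGFBP2, a binding protein found in many epithelia, was low and variable. It was at 8.8, 136.5 and 86.6 with growth factors and at 106.2, 13.1 and 17.9 after depletion. The ranges overlapped almost fully, and the difference of -0.68 ± 1.12 (SE; 95% interval -3.23 to 1.87; limma adjusted p 0.8) did not pass the test.

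**Figure D2:**
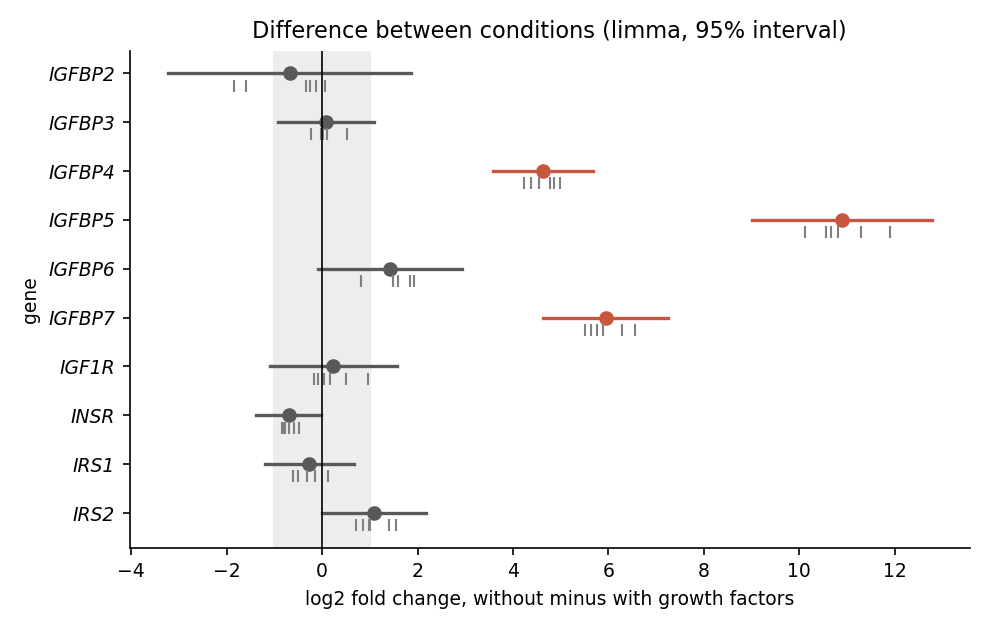
Difference between conditions for each member (log2 scale, depleted minus growth factors) as the limma estimate with its 95% interval; red marks the called genes, the grey band a change below 2-fold, and the ticks under each line the 6 values with 1 sample left out. IGFBP4, IGFBP5 and IGFBP7 lie at 4.63, 10.89 and 5.94 with all ticks far from 0, and the ticks of IGFBP2, IGFBP3, IGF1R and IRS1 fall on both sides of 0.

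The members lie at separate places in hg38 except for 1 pair. IGFBP2 (ENSG00000115457.8, chr2:216632828-216664436, plus strand) and IGFBP5 (ENSG00000115461.4, chr2:216672105-216695549, minus strand) are neighbours that end 7668 bases apart and are read toward each other. IGFBP5 rose and IGFBP2 did not pass the test. IGFBP3 (ENSG00000146674.13) is at chr7:45912245-45921874 on the minus strand. IGFBP4 (ENSG00000141753.6) is at chr17:40443450-40457725 on the plus strand. IGFBP6 (ENSG00000167779.6) is at chr12:53097436-53102345 and IGFBP7 (ENSG00000163453.10) at chr4:57030773-57110385 on the minus strand. IGF1R (ENSG00000140443.12) is at chr15:98648539-98964530 and INSR (ENSG00000171105.12) at chr19:7112255-7294414. IRS1 (ENSG00000169047.5) is at chr2:226731312-226799820 and IRS2 (ENSG00000185950.8) at chr13:109752695-109786583.

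The 250 bases before the RefSeq start site (GRCh38.p14) are shown for IGFBP5 and IGFBP4, both called higher, and for IGFBP3, the abundant family member whose level overlapped between conditions. They are the minus strand of chr2:216695550-216695799, the plus strand of chr17:40443200-40443449 and the minus strand of chr7:45921273-45921522. Each runs 5′ to 3′ toward its gene, and the capitals mark the motif letters found.
IGFBP5: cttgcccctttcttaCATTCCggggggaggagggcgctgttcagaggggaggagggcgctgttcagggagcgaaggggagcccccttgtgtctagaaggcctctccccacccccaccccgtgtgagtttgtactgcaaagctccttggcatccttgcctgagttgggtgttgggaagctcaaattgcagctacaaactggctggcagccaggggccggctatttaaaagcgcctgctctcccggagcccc
IGFBP4: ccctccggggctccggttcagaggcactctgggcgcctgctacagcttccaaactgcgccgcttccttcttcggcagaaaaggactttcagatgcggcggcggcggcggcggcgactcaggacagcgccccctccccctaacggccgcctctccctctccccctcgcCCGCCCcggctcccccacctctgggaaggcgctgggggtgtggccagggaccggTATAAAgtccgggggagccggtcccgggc
IGFBP3: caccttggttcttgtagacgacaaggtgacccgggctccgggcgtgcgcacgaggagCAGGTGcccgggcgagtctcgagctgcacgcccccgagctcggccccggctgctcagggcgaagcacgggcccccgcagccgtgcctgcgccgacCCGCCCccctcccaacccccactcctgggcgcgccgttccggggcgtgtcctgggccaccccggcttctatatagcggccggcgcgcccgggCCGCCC
The letters searched, on both strands, were TATAAA for the basal promoter element of that name, GGGCGG for the SP1 or GC box, TGTTTAC for FOXO factors, TGANTCA for AP-1, CACCTG for the E-box bound by SNAI and ZEB proteins, and GGAATG for TEAD factors. None of these contains another. Positions are those of the first base of a match, with -1 the last base before the start site. IGFBP4 held TATAAA at -29 and a GC box at -83. IGFBP3 held GC boxes at -98 and -6 and an E-box at -193. IGFBP5 held only a TEAD match, at -235, and its window had no GC box. Variants of these letters, such as other TATA-like runs, were not searched. Of the 35116 RefSeq windows of this length, 10.7% hold TATAAA, 42.6% a GC box, 2.98% the FOXO letters, 6.57% the AP-1 letters, 17.5% the E-box and 11.9% the TEAD letters. The RefSeq table held 11 windows of 9 members, IGFBP7 being the other, and every member among the 9 except IGFBP5 had a GC box. The FOXO letters occurred for IGFBP6 alone, at -186, and the AP-1 letters for none. GC content was 61.2% for IGFBP5, 71.6% for IGFBP4 and 76.0% for IGFBP3, with a median of 58% over all windows. A match describes the letters and says nothing of binding.

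IGF1R encodes the IGF-1 receptor. It was at 1243.2, 1110.8 and 5292.5 with growth factors and at 2484.1, 3006.2 and 1592.0 after depletion. Growth factor replicate 3 was the highest of all 6 samples, and the other 2 of its group were the lowest. The log2 difference was 0.23 ± 0.58 (SE; 95% interval -1.1 to 1.57; limma adjusted p 0.879), and 0.96 without that replicate (limma adjusted p 0.0817). IGF1R has 13941 bases of exon. The deviation of a sample from the mean of its own group for a gene was set against merged exon length across 16782 genes. Spearman rho was -0.086, -0.262 and 0.233 with growth factors and -0.037, 0.199 and -0.167 after depletion. The genes are not independent, and deviations within a group hold no difference between the conditions. A separate correction for length and GC content used deviations from the mean of all 6 samples. It can therefore also remove a difference between conditions that follows length or GC content. With this correction the IGF1R difference was -0.02, and the cause of the shift was not tested.

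INSR encodes the insulin receptor. It was at 1042.7, 929.7 and 1542.5 with growth factors and at 693.8, 839.2 and 592.5 after depletion. All depleted samples were below all growth factor samples, as in 25.6% of all genes tested in either direction, and the closest pair was 929.7 and 839.2. The log2 difference was -0.70 ± 0.30 (SE; 95% interval -1.39 to -0.02), and it did not pass the test (limma adjusted p 0.239). The related receptor IGF2R, which clears IGF-II without kinase activity, was at 3305.9 to 7556.1 and at 4180.1 to 7692.2, with a log2 difference of 0.10 (limma adjusted p 0.929).

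Of the substrates, IRS2 was at 412.3, 621.6 and 1328.0 with growth factors and at 1687.8, 2045.0 and 941.3 after depletion. Only the highest growth factor sample and the lowest depleted sample crossed. The log2 difference was 1.08 ± 0.48 (SE; limma adjusted p 0.251), with a 95% interval of -0.00 to 2.17. Without growth factor replicate 3 it was 1.55 and was called (limma adjusted p 0.0388), as were 2483 genes in all in that fit. IRS1 was at 1022.6, 1666.7 and 1665.5 with growth factors and at 690.1, 1878.5 and 1256.6 after depletion. Its values overlapped, and the difference of -0.27 ± 0.41 (SE; 95% interval -1.2 to 0.66; limma adjusted p 0.782) did not pass.

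Ratios of 2 genes within a sample do not depend on the size factors. The log2 ratio of IRS2 to IRS1 normalized counts was -1.31, -1.42 and -0.33 with growth factors and 1.29, 0.12 and -0.42 after depletion. It was higher in 2 of 3 depleted samples than in any growth factor sample. The mean ratio differed by 1.35, with an exact two-sided permutation p of 0.2, where 3 samples against 3 cannot go below 0.1. The log2 ratio of INSR to IGF1R was -0.25, -0.26 and -1.78 with growth factors and -1.84, -1.84 and -1.42 after depletion. It differed by -0.94 (exact two-sided permutation p 0.2), and growth factor replicate 3 lay among the depleted samples.

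Levels of different genes were compared per kilobase of merged exon. With growth factors IGFBP3 stood first at 2811 ± 1615 normalized counts per kilobase (SD, n = 3), ahead of IGFBP6 at 547 ± 369. IGF1R at 183, IRS1 at 145, INSR at 108 and IRS2 at 96.5 followed, then IGFBP4 at 34.3, IGFBP7 at 31.7, IGFBP2 at 16.3 and IGFBP5 at 2.87. Of neighbours in this order, the ranges of IGFBP3 and IGFBP6 alone did not overlap. After depletion IGFBP5 stood first at 3692 ± 1719 per kilobase, but its range overlapped that of IGFBP3 at 2685 ± 199. IGFBP7 at 1727, IGFBP6 at 1477 and IGFBP4 at 869 came next, then IRS2 at 191, IGF1R at 169, IRS1 at 127, INSR at 65.4 and IGFBP2 at 9.64. Here the ranges were separate between IGFBP3 and IGFBP7, between IGFBP4 and IRS2, and between INSR and IGFBP2. Thus 5 binding protein transcripts lay above all 4 receptor and substrate transcripts after depletion, and only 2 of them, by mean, with growth factors.

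The summed level of IGFBP2 to IGFBP7 was 2755, 2634 and 4940 normalized counts per kilobase with growth factors and 10025, 9451 and 11902 after depletion. The lowest depleted sample was above the highest growth factor sample (exact two-sided permutation p 0.1, the smallest that 3 against 3 allows). The make-up of this sum changed. IGFBP3 gave 78.5%, 61.6% and 94.1% of it with growth factors and 29.1%, 27.1% and 21.6% after depletion, a difference of -52.1 percentage points (exact permutation p 0.1) while its own level overlapped between conditions. IGFBP5 gave 0.0422%, 0.0172% and 0.142% and then 19.0%, 40.5% and 44.9% (exact permutation p 0.1). IGFBP7 gave 0.279% to 2.22% and then 9.92% to 20.7%, and IGFBP4 gave 0.805% to 1.08% and then 4.88% to 13.7% (exact permutation p 0.1 for each). Without division by length the difference in share was 52.9 percentage points instead of 34.7 for IGFBP5, 6.89 instead of 15.2 for IGFBP7 and 4.30 instead of 7.51 for IGFBP4, and the last was 4.89 without depleted replicate 1. The share of IGFBP6 was 18.4%, 35.5% and 4.02% and then 28.0%, 7.17% and 7.94%, with overlapping ranges (exact permutation p 0.7). IGFBP2 never exceeded 1.09%. These 6 permutation tests were on parts of 1 sum, so they are not independent, and adjusted for 6 tests none could fall below 0.1.

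**Figure D3:**
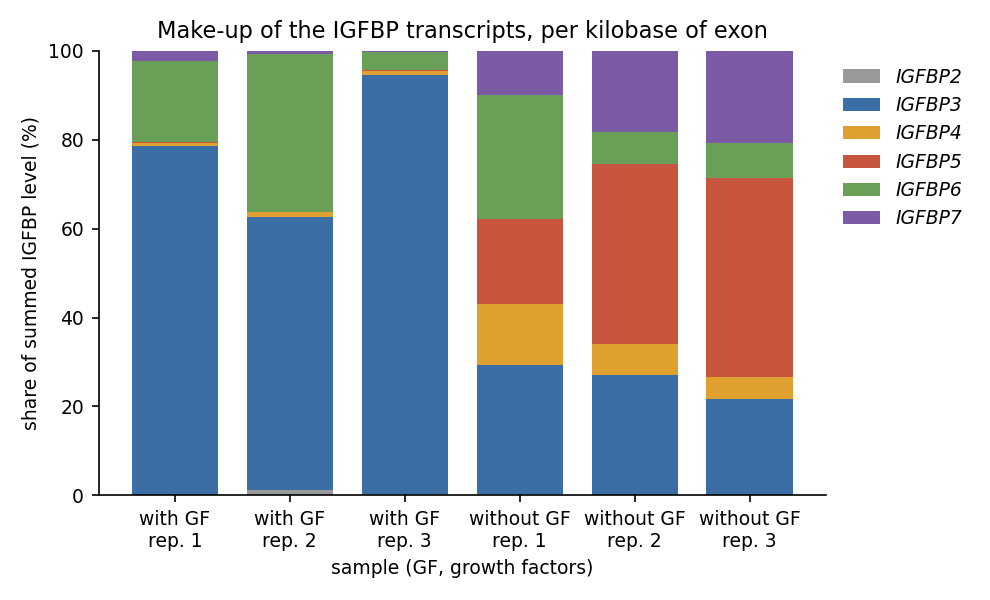
Share (%) of each IGFBP transcript in the summed level per kilobase of exon, 1 bar for each of the 6 samples (GF, growth factors). IGFBP3 (blue) fills 61.6% to 94.1% of the bars with growth factors and 21.6% to 29.1% of the depleted bars, in which IGFBP5 (red) reaches 19.0% to 44.9%.

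Among the other ligands, receptors and binding proteins, the genes INS, IGF2, IGFBP1, INSRR and IRS4 are not listed in the table. IGF1, the ligand itself, was at 0 in the 3 growth factor samples and at 3.7, 13.8 and 8.9 in the depleted samples, from 4, 21 and 4 reads. Set against 3 reads in each growth factor sample, the depleted mean was 3.11-fold higher. This makes no allowance for counting error in the depleted values. IGF1 was below the mean of 10 needed for a test. IGFALS, which forms the ternary complex of IGF and IGFBP3 in blood, was at 0, 0 and 3.9 and then at 2.7, 13.1 and 8.9, also untested. The values of both are near the floor.

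Of 7 tested proteases and inhibitors that act on IGFBPs, 2 were called, both higher, and the median log2 difference was 0.78. Over all genes tested 6.33% were called, 4.36% higher. STC2, a stanniocalcin that inhibits pappalysins, was at 731.9, 833.7 and 194.8 and then at 4270.7, 5069.6 and 2904.5 (log2 difference 3.01, limma adjusted p 0.0149). HTRA1, a secreted serine protease that itself carries an IGFBP-like domain, was at 789.5, 533.7 and 522.4 and then at 7641.7, 2141.4 and 2600.4, again highest in depleted replicate 1 (2.53, limma adjusted p 0.0184). In both called genes all depleted samples were higher, and in 25.6% of all genes tested the groups did not overlap. The other 5 did not pass, with log2 differences from -0.51 to 0.92. STC2 was not called without depleted replicate 2 (limma adjusted p 0.0686), nor HTRA1 without growth factor replicate 2 (0.0613).

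Of 9 tested genes outside the family whose proteins carry an IGFBP-like domain, 5 were called higher and none lower. Over all genes tested 4.36% were called higher and 1.97% lower, and in 25.6% the groups did not overlap. All depleted samples were higher for 7 of the 9 genes and lower for 1. That 1 was CCN5, a CCN protein that lacks the carboxy-terminal domain of the others, which went from 807.1, 1266.0 and 1576.9 to 15.6, 373.7 and 427.1 and did not pass the test (log2 difference -3.08, limma adjusted p 0.158). The median log2 difference was 3.68, the value of CCN4, which had 7, 1 and 0 reads with growth factors and was not called (limma adjusted p 0.0698). CCN3, CCN4 and ESM1 reached a mean of 10 through the depleted samples alone, so the counts and the median over the tested genes are a description. The median was 1.96 with a pseudocount of 10 and 2.53 over the 7 that average 50 or more, against -0.029 for all genes tested. Among the called genes 3 encode matricellular CCN proteins. CCN1 was at 96.5, 301.1 and 387.6 and then at 3689.5, 4631.0 and 3550.7 (4.12, limma adjusted p 0.00268). CCN2 was at 132.8, 786.2 and 155.4 and then at 3825.9, 10242.8 and 14066.3 (5.01, limma adjusted p 0.00573). CCN3 was at 5.0, 4.1 and 6.9 and then at 132.7, 512.1 and 225.8 (5.32, limma adjusted p 0.00211). Their groups were well apart, at very different levels. ESM1, a secreted proteoglycan, had 2 reads over all growth factor samples and 97 over the depleted samples, a ratio of 55.7 per size factor (95% exact counting interval 15 to 467; limma adjusted p 0.00767). HTRA1 was the fifth, and the other 4 were called whichever sample was left out. With ESM1 set to the value that 3 reads in each growth factor sample would give, the median was 3.46.

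Of 19 tested receptor adaptors and regulators, 3 were called higher and 1 lower, with a median log2 difference of -0.03. Over all genes tested 4.36% were called higher and 1.97% lower. GAB2, a docking protein for PI3-kinase and SHP2, was at 35.1, 56.8 and 85.6 and then at 467.7, 395.4 and 433.8 (2.93, limma adjusted p 0.00509). ENPP1, an ectoenzyme that can inhibit the insulin receptor, was at 16.3, 7.6 and 13.8 and then at 249.9, 100.3 and 73.8 (3.25, limma adjusted p 0.0171). SOCS3, a feedback inhibitor of cytokine and insulin signalling, was at 40.1, 51.6 and 108.2 and then at 272.8, 291.1 and 297.4 (2.22, limma adjusted p 0.0227). GRB14, an adaptor that inhibits the insulin receptor kinase, fell from 119.1, 165.8 and 124.9 to 11.9, 39.3 and 17.9 (-2.67, limma adjusted p 0.0233). The groups did not overlap in any of these 4 called genes, nor in 25.6% of all genes tested. GAB2 was called whichever sample was left out. ENPP1 was not called without growth factor replicate 2 (limma adjusted p 0.0548), depleted replicate 1 (0.0503) or depleted replicate 2 (0.0695). GRB14 was not called without growth factor replicate 1 (limma adjusted p 0.0755) or 2 (0.0865), or without depleted replicate 1 (0.0555) or 3 (0.103). SOCS3 kept its call without growth factor replicate 3 and lost it without any of the other 5 samples (limma adjusted p 0.0577 to 0.111).

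Of 21 tested genes of the PI3K, AKT and mTOR core, 1 was called higher, with a median log2 difference of -0.19. PIK3CD, a catalytic PI3-kinase subunit, was at 15.0, 40.4 and 85.6 and then at 205.9, 272.8 and 313.0 (2.76, limma adjusted p 0.0351), and apart from growth factor replicate 3 it was no longer called when any 1 sample was left out (limma adjusted p 0.0643 to 0.147) or with edgeR (0.0538). Of 14 tested FOXO genes and FOXO targets known to respond to insulin, 1 was called lower and none higher. Both counts of 1 are near the 6.33% called over all genes tested. In the FOXO list 12 differences were negative, where 51.8% were over all genes tested, and the median was -0.52. This list shares PIK3CA and RICTOR with the core list. FOXO1, the transcription factor that insulin signalling keeps out of the nucleus, fell from 1574.1, 1143.6 and 1451.0 to 333.2, 493.7 and 386.8 (-1.78, limma adjusted p 0.00866), and was not called without depleted replicate 3 (0.0514). Of 2 tested IGF2 mRNA-binding protein genes none was called, and the median was -0.72. Both were lower in every depleted sample, as were 2053 of the 16988 genes tested. In all, 12 genes of these lists were called by limma, beside 1076 of all 16988 genes tested. Without growth factor replicate 2 the lists had 7, beside 681 of 17151 genes in that fit.

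**Figure D4:**
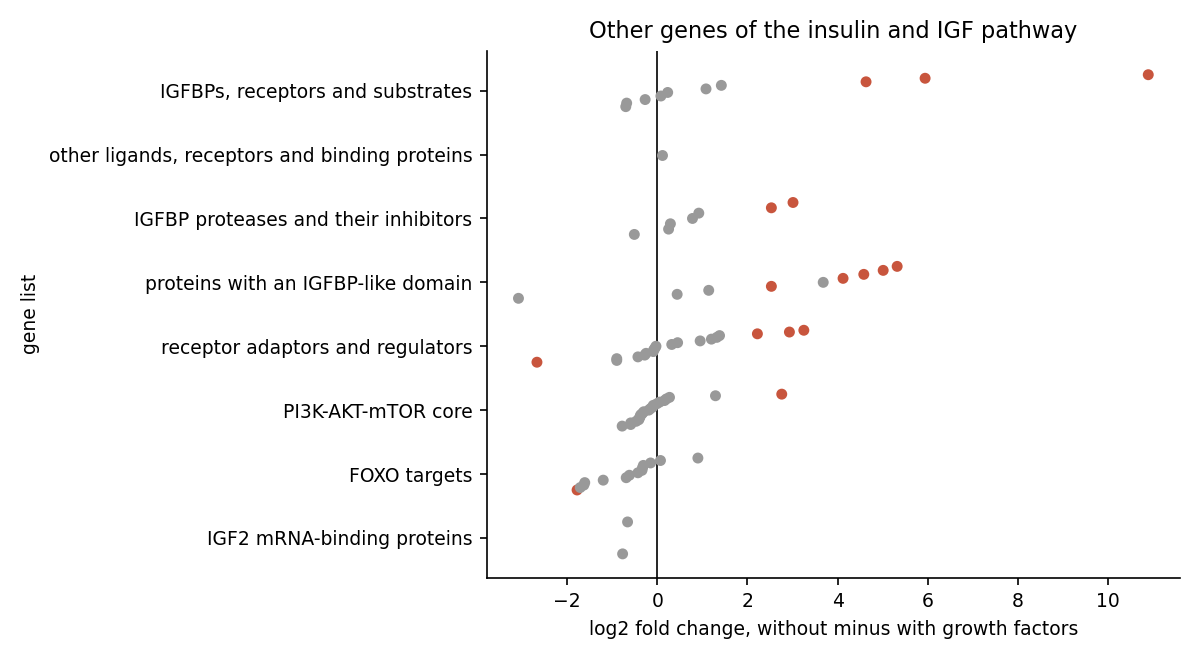
Difference between conditions (log2 scale, depleted minus growth factors) for each tested gene of the 10 members and of 7 lists of related genes. The list of proteins with an IGFBP-like domain was chosen by that domain and not by pathway. Red points are called genes and grey points are not. Called genes lie to the right among the binding proteins and the proteins with an IGFBP-like domain (5 of 9), and most points of the PI3K-AKT-mTOR core and the FOXO list lie near or left of 0.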

How the data were processed

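RNA-Seq of MCF10A cells was analysed in 6 samples, grouped by the labels into 3 with growth factors and 3 growth factor depleted. The authors trimmed the single-end reads of 100 bases from stranded libraries with cutadapt 1.6 and aligned them to hg38 by TopHat2. Reads per gene of Gencode v22 came from HTSeq 0.6, and the authors scaled each sample by its DESeq2 1.8.1 size factor. The deposited values are this normalized signal per gene. Whole reads were recovered from 100% of values within 0.01. No gene is listed with fewer than 3 samples at 3 reads or more. Gencode v44 named 18913 of the 19198 identifiers and gave the coordinates.

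The 16988 genes whose mean reached 10 went into a two-sided limma 3.58.1 test (R 4.3.3; moderated variances with a mean trend) on log2(normalized count + 1), 3 samples against 3, with Benjamini-Hochberg adjustment over all genes tested. Shares and ratios were compared by exact permutation. The procedure was tested on simulated data. Same-numbered samples did not deviate together. The alternatives were other pseudocounts, filters, scalings, thresholds and length divisions, a replicate block, a length and GC correction, each sample left out, and edgeR 4.0.16 and DESeq2 1.42.0 on the recovered reads.

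The members and lists were chosen with earlier results of these data known. Named are all members, each called gene of these lists, each other ligand, receptor or binding protein listed, cell type markers, and genes a result turns on. Python 3.11.15, pandas 2.3.3, numpy 2.4.6 and matplotlib 3.10.9 were used for tables and plots.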

Additional observations from a re-analysis of the deposited data

How the results depend on the processing

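Depth limits the lowest values, such as IGFBP5 with growth factors and IGF1, and 3 samples per group limit all. IGFBP4, IGFBP5 and IGFBP7 were called in all 20 alternatives, with log2 differences of 4.24 to 4.98, 9.88 to 11.89 and 5.5 to 6.55. Between 3 and 4 of 10 members were called, the fourth being IRS2 without growth factor replicate 3 (1.55, limma adjusted p 0.0388). With the replicate number as a block the same 3 members and 967 genes in all were called, against 1076. Same-numbered samples correlated at -0.073, -0.283 and -0.323, so the numbers do not pair them. Differently numbered samples correlated at -0.068 to 0.291, highest for growth factor replicate 2 with depleted replicate 3. The source of these correlations was not tested. All genes called came to 2112 with DESeq2, 701 with the length and GC correction and the block, and 445 to 2483 with 1 sample left out. Some members that did not pass the test changed sign, and the cause was not tested. IGFBP3 was at -0.03 with the length and GC correction (with or without the block), -0.04 with edgeR and -0.07 with DESeq2, and IGF1R at -0.02, -0.08 and -0.12. With 1 sample left out, IGFBP2 ranged from -1.84 to 0.06, IGFBP3 from -0.24 to 0.52, IGF1R from -0.17 to 0.96, IRS1 from -0.6 to 0.12 and the IGFBP6 share from -12.6 to 3.16 percentage points. The gene lists beside the members, with 12 called genes, had 7 to 14 with 1 sample left out, 6 at an adjusted p under 0.01 and 18 with DESeq2. The number called over all genes, given above, also differed with 1 sample left out and with DESeq2.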
